A study of Mus musculus with 8 samples.

Results

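Gene expression was measured by RNA-seq in CD44+ NK1.1- natural killer T (NKT) cells sorted from the mouse thymus, with and without the gene Ezh2. Of 8 libraries in the series, 4 belong to this subset and were chosen by their labels: 2 from wild-type (WT) and 2 from Ezh2 knock-out (Ezh2-KO) mice, all on the C57BL/6 background. The other 4 libraries came from CD44+ NK1.1+ and CD44- NK1.1- cells, with 1 library a genotype and no replicate, and were used to see whether a change in CD44+ NK1.1- cells differed from the change there. They also entered the fit, its filter on low counts and its estimate of spread. The replicates were biological by the series design text, which also says that every RNA sample was spread over 4 sequencing lanes. The knock-out allele, the promoter of any Cre, the age of the mice and whether a library pooled animals are unstated in the sources used here, so the limits they set on the model are unknown.

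Ezh2 is a histone methyltransferase. As the active subunit of Polycomb repressive complex 2 (PRC2), it marks histone H3 at developmental genes and helps to keep them silent in cells that do not need them. NKT cells are T cells with a nearly fixed receptor that recognises lipids shown by CD1d, and they acquire effector programmes inside the thymus. CD44 marks the cells that have left the earliest stage, and NK1.1 marks the last thymic stage, so CD44+ NK1.1- cells lie between them and hold a mixture of NKT1, NKT2 and NKT17 cells, which make interferon-gamma, interleukin-4 and interleukin-17.

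The total counts ranged from 20308745 to 22995090 per library. Levels are given as CPM, the counts of a gene scaled to a common library total, after TMM scaling, a correction for library composition, and a gene with no reads in a library is bounded at 3 counts, which came to 0.129 to 0.151 CPM. Levels printed under that bound rest on 1 to 3 reads. The WT pair was the less alike: the chi-square of their counts averaged 41.8 per gene against 6.22, where sampling noise alone gives about 1, and 289 of 11549 genes of at least 1 CPM differed over 2-fold in the WT pair against 9 of 11845 in the Ezh2-KO pair. The receptor segments of NKT cells were present in all 4 libraries, Trav11d with 153 and 129 CPM in WT and 109.9 and 102 CPM in Ezh2-KO and Traj18 with 27.6 and 25.7 CPM and 22.3 and 20.5 CPM. Cd44 measured 231 and 189.8 CPM in WT and 139 and 135 CPM in Ezh2-KO, against 17.0 and 17.9 CPM in the CD44- libraries. Klrb1c, which encodes the gated NK1.1, stood at 218 and 68.5 CPM in WT and 50.04 and 41.7 CPM in Ezh2-KO, so WT replicate 1 was above the other 3 libraries. Summed immediate early genes, which respond to a stimulus ahead of other genes, gave 8022, 1930.0, 1764 and 1661 CPM in WT replicates 1 and 2 and Ezh2-KO replicates 1 and 2, again with WT replicate 1 apart. Haemoglobin genes summed to 1.85 and 2.37 CPM in WT and to 36.5 and 0.989 CPM in Ezh2-KO, so Ezh2-KO replicate 1 was above the other 3 libraries. In the single libraries of the other subsets they summed to 101 CPM in Ezh2-KO and 1.69 CPM in WT CD44+ NK1.1+ cells, and to 38.5 and 1.30 CPM in CD44- NK1.1- cells. Markers of B cells (163, 149, 138 and 143 CPM in the same order) and myeloid cells (16.2, 6.71, 12.6 and 5.53 CPM) were not higher in both Ezh2-KO libraries. Those of dendritic cells (283, 299, 321 and 319 CPM) and immature thymocytes (1402, 1239, 1506 and 1440 CPM) were higher in both. Of 11 and 20 tested genes of these lists, 0 and 1 were called higher and 0 and 0 lower. Their median log2 changes were 0.01 and -0.61. Intervals and bounds from counts cover counting error only. The part of these differences between libraries in the changes was not tested, and each gene was set against both WT libraries.

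Ezh2 itself (chromosome 6, 47530274 to 47595270, build mm10) measured 113 and 136 CPM in the WT replicates and 83.3 and 77.9 CPM in the Ezh2-KO replicates. Both Ezh2-KO libraries lay under both WT libraries, with a log2 change of -0.63 (SE 0.12, adjusted p = 0.0407). The p-values are from the quasi-likelihood test of edgeR, adjusted over all 13794 genes tested, SE is the standard error of the log2 change, and a gene is called at an adjusted p under 0.05. The call of Ezh2 ended without Ezh2-KO replicate 1 or 2 (log2 changes of -0.68 and -0.58). It also ended with limma-voom (adjusted p = 0.0547) and with scaling by library size (adjusted p = 0.0524). An edgeR test against a fold of 1.5 did not call it either (unadjusted p = 0.161). Ezh2 went from 57.2 to 40.4 CPM in CD44+ NK1.1+ cells and from 109 to 78.4 CPM in CD44- NK1.1- cells. A count over the whole gene does not show which part of it was deleted. In RNA from sorted cells, fewer cells of a type and less RNA per cell cannot be told apart.

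The largest rises without Ezh2 included genes near 0 in WT, among them receptors of developmental pathways, adhesion molecules and transcription factors. The falls included effector, homing and coreceptor genes of T cells. Of the 13794 genes, 682 were called (4.94%), 522 higher (3.78%) and 160 lower (1.16%), and 2853 had an unadjusted p under 0.05. Of the 682, 479 higher genes (3.47%) and 90 lower genes (0.652%) were also set apart, meaning that the nearer Ezh2-KO library cleared both WT libraries by at least 1.5-fold after the CPM of 3 counts was added. The remaining 43 higher and 70 lower calls cleared them by less. All 682 called genes had a gap of some size, so a lack of overlap adds nothing to a call. For comparison, 26.5% of all genes tested had both Ezh2-KO libraries over both WT libraries, 25.8% had them under, and 21.1% had them between. A gene near 0 in WT passed the filter on low counts through its level in another group and could only be called higher, which held for the 53 called genes with 0 to 3 counts in the WT pair. The counts of list members below are therefore descriptions, to be read beside those shares and beside the median log2 change of all genes, -0.01.

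**Figure D1:**
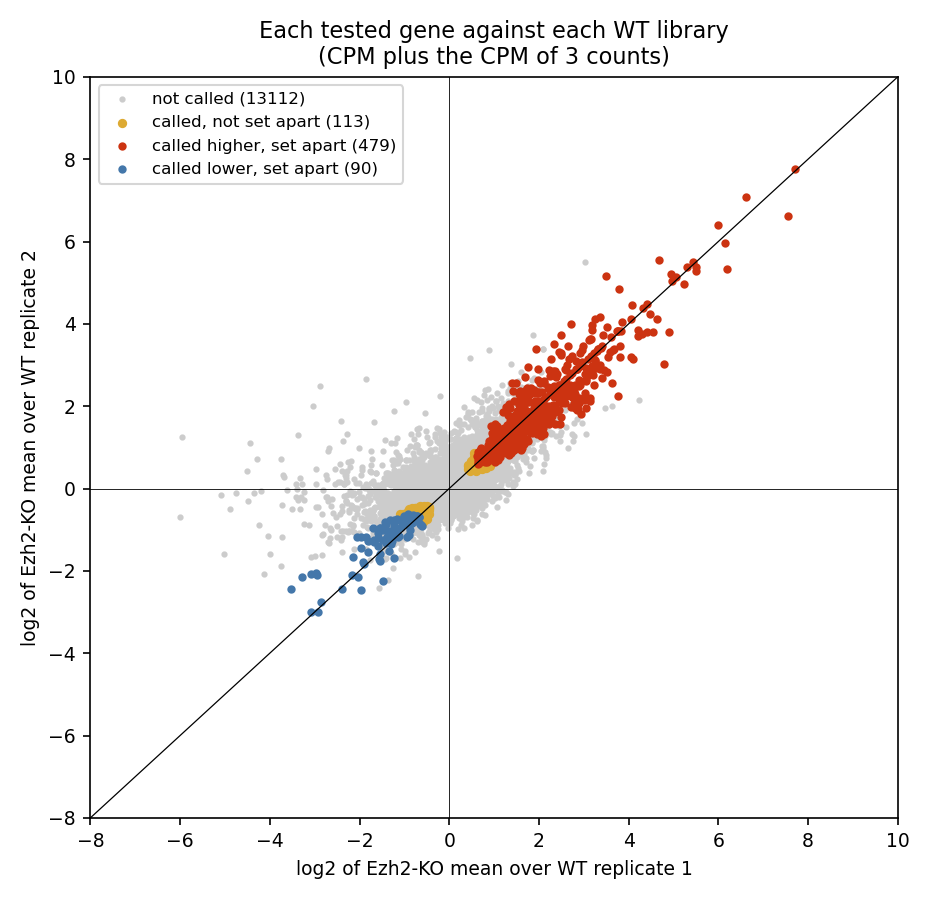
Each point is a tested gene, with the log2 ratio of the Ezh2-KO mean to WT replicate 1 on the x axis and to WT replicate 2 on the y axis, both in CPM plus the CPM of 3 counts. The 479 genes called higher and set apart and the 90 called lower and set apart lie near the diagonal, while uncalled genes spread along the x axis, where WT replicate 1 differed from the other libraries.

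The 25 largest rises, ranked by log2 change among genes called, set apart and with a mean of at least 10 CPM in the higher genotype, began with Tcf24, a bHLH factor gene with 1 count over both WT libraries and 750 over both Ezh2-KO libraries. Several of the others shape the cell skeleton or its signals. Arhgap24, which encodes a GTPase-activating protein of Rac, measured 8.02 and 7.91 CPM in WT and 86.1 and 85.1 CPM in Ezh2-KO, a change of 3.42 (SE 0.11, adjusted p = 0.000223). Shtn1, which encodes shootin-1 of growing neurites, measured 2.16 and 2.19 CPM in WT and 34.3 and 31.2 CPM in Ezh2-KO (3.91). Chn1, which encodes the Rac regulator chimaerin, measured 0.406 and 0.688 CPM in WT and 10.7 and 11.97 CPM in Ezh2-KO (4.36). These genes were chosen as called and set apart, so the gap between their genotypes was part of the choice. Amph, an endocytic protein of synapses (3.07), the RNA-binding protein gene Khdrbs3 (3.24), Mpped2 (3.16), and the matrix genes Fbn2 (3.26) and Thbs1 (3.08) rose too. Their levels in the WT libraries lay between 0.856 and 2.93 CPM. The remaining rises are given with their groups below.

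The 25 largest falls were smaller, from -2.83 to -1.17. The non-coding RNA 9530036M11Rik fell furthest, from 48.5 and 45.8 CPM to 5.92 and 7.29 CPM, or -2.83 (SE 0.15, adjusted p = 0.000781) on the log2 scale. The matrix gene Emilin1 measured 17.5 and 24.8 CPM in WT and 4.25 and 4.46 CPM in Ezh2-KO (-2.28). Padi2, an enzyme that converts arginine in proteins to citrulline, measured 184 and 139.8 CPM in WT and 63.97 and 58.4 CPM in Ezh2-KO (-1.40, adjusted p = 0.00725). Signalling genes of lymphocytes were among these falls. Prkcb, a protein kinase C gene, measured 142 and 114 CPM in WT and 56.96 and 54.3 CPM in Ezh2-KO (-1.20, adjusted p = 0.00725). Gna15, a G protein alpha subunit gene of blood cells, measured 22.9 and 21.7 CPM in WT and 7.97 and 9.18 CPM in Ezh2-KO (-1.38, adjusted p = 0.00618). Jaml, an adhesion receptor gene of T cells that meet epithelium, measured 53.7 and 39.1 CPM in WT and 19.9 and 18.6 CPM in Ezh2-KO (-1.27, adjusted p = 0.0139). These genes were chosen as set apart, so their genotypes could not overlap. WT replicate 1 was the higher WT library for Padi2, Prkcb, Gna15 and Jaml. The motor protein gene Myo1f (-1.56), Rsrp1 (-1.44), Mctp2 (-1.39), Ppp1r3b (-1.35), the receptor gene Gpr34 (-1.31), Fibcd1 (-1.26), the actin regulator gene Mical2 (-1.25), Dennd5a (-1.58) and Tm6sf1 (-1.71) fell too. Where a gene overlaps another, as antisense RNAs do, reads of the partners cannot be told apart because the strand setting of the count is not given in the sources used here.

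The number of calls depended on the libraries. It was 3752 without WT replicate 1 and 5792 without WT replicate 2, where the spread within a genotype came from the close Ezh2-KO pair, and 101 and 108 without Ezh2-KO replicates 1 and 2. Only 5 and 3 genes were called lower in those last 2 fits, against 96 and 105 called higher. Of 154 called genes named here, 154 and 154 kept their call without WT replicates 1 and 2, and 38 and 41 kept it without Ezh2-KO replicates 1 and 2. Among the named falls, 9530036M11Rik and Dtx1 kept their call in all of these fits, Slc22a3 lost it without Ezh2-KO replicate 2 and Rsrp1 without Ezh2-KO replicate 1, and the rest lost it in both fits.

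Some of these genes were looked at by sequence, because PRC2 is known to act at promoters rich in CG pairs. The 250 bases before the annotated start are given for the receptor genes Epha3 and Ryk, the desmosome gene Dsp and the transcription factor gene Eomes, which rose, and for the transcription factor gene Tbx21 and the chemokine receptor gene Ccr8, which fell. The window of Eomes ends 3 bases inside the gene span given below, which starts at another position than this window's transcript. The sequences were taken from RefSeq on GRCm38.p6, the assembly of build mm10, and are written on the strand of the gene with each CG in capitals. Their positions are chr16:63864176-63864425 on the minus strand for Epha3, chr9:102834670-102834919 on the plus strand for Ryk, chr13:38151044-38151293 on the plus strand for Dsp, chr9:118477939-118478188 on the plus strand for Eomes, chr11:97115332-97115581 on the minus strand for Tbx21 and chr9:120091883-120092132 on the plus strand for Ccr8.
Epha3: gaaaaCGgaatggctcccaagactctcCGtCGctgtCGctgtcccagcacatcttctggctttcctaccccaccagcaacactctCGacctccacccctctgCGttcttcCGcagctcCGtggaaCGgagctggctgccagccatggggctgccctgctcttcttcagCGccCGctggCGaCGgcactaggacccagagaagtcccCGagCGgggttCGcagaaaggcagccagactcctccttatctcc
Ryk: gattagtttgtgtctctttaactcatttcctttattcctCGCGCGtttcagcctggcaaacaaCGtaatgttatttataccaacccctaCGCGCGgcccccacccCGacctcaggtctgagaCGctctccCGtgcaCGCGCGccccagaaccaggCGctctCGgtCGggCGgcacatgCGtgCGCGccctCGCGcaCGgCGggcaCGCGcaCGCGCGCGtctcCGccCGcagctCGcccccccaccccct
Dsp: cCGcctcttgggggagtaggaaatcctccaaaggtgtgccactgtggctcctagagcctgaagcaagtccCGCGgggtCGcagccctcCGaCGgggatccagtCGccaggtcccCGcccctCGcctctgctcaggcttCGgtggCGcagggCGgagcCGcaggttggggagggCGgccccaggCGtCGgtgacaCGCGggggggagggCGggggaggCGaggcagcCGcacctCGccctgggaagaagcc
Eomes: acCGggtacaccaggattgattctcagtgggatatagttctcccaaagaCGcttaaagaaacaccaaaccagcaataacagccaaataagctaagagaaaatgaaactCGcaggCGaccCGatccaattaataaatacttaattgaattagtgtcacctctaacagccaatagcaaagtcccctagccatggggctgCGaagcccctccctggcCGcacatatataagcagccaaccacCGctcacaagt
Tbx21: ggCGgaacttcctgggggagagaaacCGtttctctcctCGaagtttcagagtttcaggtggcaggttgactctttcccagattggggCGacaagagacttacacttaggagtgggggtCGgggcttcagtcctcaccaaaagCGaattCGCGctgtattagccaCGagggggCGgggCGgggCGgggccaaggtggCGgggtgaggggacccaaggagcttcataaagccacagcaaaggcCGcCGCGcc
Ccr8: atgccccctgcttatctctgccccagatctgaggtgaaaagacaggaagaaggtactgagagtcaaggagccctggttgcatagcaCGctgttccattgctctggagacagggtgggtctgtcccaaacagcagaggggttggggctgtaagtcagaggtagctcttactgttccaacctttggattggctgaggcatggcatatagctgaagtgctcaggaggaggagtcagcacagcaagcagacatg
Epha3 held 16 CG pairs, Ryk 33, Dsp 22, Eomes 8, Tbx21 16 and Ccr8 1, with overlapping matches impossible and both strands alike for this motif. The median of 32851 promoter windows of 27025 genes was 6, and 92.1% of windows held at least 1. At least as many as in Ryk were found in 4.03% of windows, in Dsp in 14.8%, in Epha3 or Tbx21 in 25.4% and in Eomes in 43%. Epha3, which rose, and Tbx21, which fell, thus held the same number. Only 73.9% of the genes called higher and 68.8% of those called lower had a window in the table, so no comparison of the groups was made.

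Several receptors of the Wnt pathway rose. Wnt proteins bind Frizzled receptors and coreceptors such as Ryk, the pathway ends at the transcription factors Lef1 and Tcf7, and Rnf43 is a ubiquitin ligase that removes Frizzled receptors from the surface. The Frizzled gene Fzd6 (chromosome 15, 39006149 to 39038192) measured 8.20 and 10.9 CPM in the WT replicates and 66.02 and 57.5 CPM in the Ezh2-KO replicates, a log2 change of 2.69 (SE 0.17, adjusted p = 0.00134). Ryk (chromosome 9, 102834920 to 102908307) measured 9.33 and 11.1 CPM in WT and 78.8 and 74.97 CPM in Ezh2-KO, a change of 2.91 (SE 0.13, adjusted p = 0.000464). Rnf43 (chromosome 11, 87663087 to 87735539) measured 17.7 and 18.3 CPM in WT and 103 and 103 CPM in Ezh2-KO, a change of 2.52 (SE 0.10, adjusted p = 0.000236). For all 3 genes the lowest Ezh2-KO library was several times above the highest WT library, which describes called genes and adds nothing to their calls. Lef1, which acts in the early thymic development of T cells, was already high in WT with 118 and 148 CPM. It reached 286 and 262 CPM in Ezh2-KO, a change of 1.04 (adjusted p = 0.0121). Fzd10 measured 3.29 and 3.83 CPM in WT and 7.58 and 8.24 CPM in Ezh2-KO (1.15). The receptors Fzd3 (3.08) and Fzd8 (3.31) and the ligand gene Wnt6 (2.02, from 0.270 and 0.473 CPM) rose from under 1 CPM in both WT libraries. Ryk is counted below with the kinases. Of 40 tested genes of the Wnt list, 7 rose and 0 fell, and the median change was 0.29, or 0.28 with genes of no counts in a genotype set at their bound. Axin2, a common target of the pathway, measured 47.3 and 50.7 CPM in WT and 34.1 and 37.04 CPM in Ezh2-KO and was not called (-0.46, adjusted p = 0.0746). The list had 2 higher and 0 lower without Ezh2-KO replicate 1, 2 and 0 without Ezh2-KO replicate 2, 15 and 5 without WT replicate 1, and 18 and 11 without WT replicate 2.

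A few genes of the transforming growth factor beta (TGF-beta) and bone morphogenetic protein (BMP) pathways changed, among them the BMP receptor genes Bmpr1a and Bmpr2. Bmpr1a, a type I receptor that signals through Smad proteins (chromosome 14, 34411061 to 34503336), measured 2.75 and 2.41 CPM in WT and 43.4 and 39.7 CPM in Ezh2-KO, a change of 4.01 (SE 0.15, adjusted p = 0.000232). Bmpr2, its type II partner, measured 9.92 and 11.9 CPM in WT and 26.2 and 24.2 CPM in Ezh2-KO, a change of 1.21 (adjusted p = 0.00908). Eng, which encodes the coreceptor endoglin, measured 106 and 140.1 CPM in WT and 390.0 and 372 CPM in Ezh2-KO, a change of 1.63 (adjusted p = 0.00420). Acvrl1, the type I receptor that endoglin usually serves in blood vessels, had 16.8 and 17.03 CPM in WT and 8.54 and 6.62 CPM in Ezh2-KO, a change of -1.16 (adjusted p = 0.0190). The libraries of the 2 genotypes did not overlap for any of these 4 genes, as for every called gene. Smad6, an inhibitor of BMP signals with 4 counts over both WT libraries, rose by 3.16 and the inhibin subunit gene Inha by 2.61, from 0.0451 and 0.129 CPM and 0.270 and 0.172 CPM in WT. In all, 5 of 34 tested genes of the TGF-beta and BMP list rose and 1 fell, with a median of 0.03. The receptor genes Acvr1 (0.14) and Acvr2a (0.56) were not called. Leaving out a library gave 2 higher and 0 lower without Ezh2-KO replicate 1, 2 and 0 without Ezh2-KO replicate 2, 11 and 5 without WT replicate 1, and 8 and 10 without WT replicate 2.

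Some genes of the list of receptor tyrosine kinases and the insulin and insulin-like growth factor (IGF) pathway rose, and others did not pass the test. Irs1, the adaptor that carries signals from the insulin and IGF receptors, measured 1.08 and 1.03 CPM in WT and 10.7 and 10.7 CPM in Ezh2-KO, a change of 3.33 (SE 0.21, adjusted p = 0.00133). Igf1r, the receptor gene, measured 10.8 and 10.8 CPM in WT and 26.1 and 22.9 CPM in Ezh2-KO, a change of 1.19 (adjusted p = 0.00993). Grb10, an adaptor that restrains the same receptors, went from 0.316 and 0.215 CPM to 30.4 and 27.001 CPM (6.73). Within each genotype the replicates of these 3 genes lay close together. No Ezh2-KO library reached down to a WT library, as for every gene called higher. Irs2, the other main adaptor, had 40.6 and 3.27 CPM in WT and 3.39 and 3.02 CPM in Ezh2-KO and was not called (-2.77, adjusted p = 0.442), with WT replicate 1 alone high, and neither was the insulin receptor gene Insr (24.03 and 19.8 CPM and 22.1 and 19.4 CPM, -0.08). Ntrk3, a neurotrophin receptor gene, rose by 0.79 from 45.7 and 48.1 CPM. Ret, the receptor kinase of GDNF family ligands, had 2.93 and 0.989 CPM in the WT replicates and 12.3 and 11.1 CPM in Ezh2-KO (2.58, adjusted p = 0.0379), and its WT replicates differed from each other almost 3-fold. With Ryk, 6 of 22 tested genes of the list rose and 0 fell, and the median over the list was -0.06. The numbers became 3 higher and 0 lower without Ezh2-KO replicate 1, 3 and 0 without Ezh2-KO replicate 2, 9 and 3 without WT replicate 1, and 9 and 8 without WT replicate 2.

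Receptors that guide growing axons and other neuronal surface genes were among the largest rises. Epha3, a receptor for ephrin-A ligands, measured 0.180 and 0.473 CPM in WT and 62.1 and 56.2 CPM in Ezh2-KO, a change of 7.46 (SE 0.29, adjusted p = 0.000236). Neo1 and Unc5c both encode receptors for netrins. Neo1 (chromosome 9, 58874679 to 59036614) measured 0.721 and 0.688 CPM in WT and 20.1 and 16.2 CPM in Ezh2-KO (4.68, adjusted p = 0.000493). Unc5c (chromosome 3, 141465564 to 141834924) had 2 counts over both WT libraries and 330 over both Ezh2-KO libraries, a depth-corrected ratio of 174 (exact counting interval 47.7 to 1439) with an adjusted p of 0.000781. Robo1, the receptor for Slit ligands, measured 3.29 and 4.56 CPM in WT and 32.2 and 30.4 CPM in Ezh2-KO (2.99, adjusted p = 0.00147). Nrn1, a small membrane-anchored protein of neurons that regulatory T cells can also express, went from 1.26 and 1.51 CPM to 61.7 and 64.5 CPM (5.50). The adhesion gene Chl1 went from 2.61 and 1.38 CPM to 25.8 and 26.1 CPM (3.70). All 6 of these genes were below 5 CPM in both WT libraries and above 7 CPM in both Ezh2-KO libraries. These limits describe called genes and add nothing to their calls. Flrt2 (1.27), Nlgn2 (0.88) and the semaphorin receptor gene Plxna3 (0.67) rose less, from levels that WT cells already had. Sema5a had 1 count over both WT libraries and 30 over both Ezh2-KO libraries, a depth-corrected ratio of 31.6 (exact counting interval 5.25 to 1287). The one fall in this list was Sema4a, a semaphorin of lymphocytes, with 431 and 324 CPM in WT and 219.7 and 202 CPM in Ezh2-KO (-0.84, adjusted p = 0.0342), and it was not set apart from WT replicate 2 by 1.5-fold. That made 9 higher and 1 lower of 38 tested axon guidance and neuronal surface genes (median 0.18), and 1 higher and 0 lower of 11 tested ephrins and Eph receptors (median 0.51). The axon guidance list had 5 higher and 0 lower without Ezh2-KO replicate 1, 5 and 0 without Ezh2-KO replicate 2, 14 and 7 without WT replicate 1, and 16 and 8 without WT replicate 2, and Epha3 was called in each of these fits. The Eph list had 1 higher and 0 lower without Ezh2-KO replicate 1, 1 and 0 without Ezh2-KO replicate 2, 3 and 0 without WT replicate 1, and 2 and 0 without WT replicate 2.

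Several genes of cadherins and junctions rose, among them 3 genes of desmosomes, the plaques that join epithelial and heart muscle cells. Dsp encodes the plaque protein desmoplakin (chromosome 13, 38151294 to 38198577), Pkp2 the plaque protein plakophilin-2 and Dsg2 a desmosomal cadherin. Dsp measured 0.225 and 0.172 CPM in WT and 10.8 and 11.2 CPM in Ezh2-KO, a change of 5.76 (SE 0.25, adjusted p = 0.000399). Dsg2 measured 0.406 and 0.774 CPM in WT and 13.3 and 11.7 CPM in Ezh2-KO, a change of 4.39 (SE 0.29, adjusted p = 0.00147). Pkp2 measured 0.316 and 0.301 CPM in WT and 2.48 and 2.52 CPM in Ezh2-KO, a change of 2.997 (SE 0.32, adjusted p = 0.00725). All 3 were below 1 CPM in both WT libraries and above 2 CPM in both Ezh2-KO libraries, which again describes called genes and adds nothing to their calls. Jup, which encodes the plaque protein plakoglobin that also serves in classical junctions, measured 48.01 and 56.4 CPM in WT and 52.7 and 49.7 CPM in Ezh2-KO and was not called (-0.03, adjusted p = 0.927), and neither were the plaque genes Pkp3 (123 and 99.7 CPM in WT and 87.6 and 90.1 CPM in Ezh2-KO, -0.32) and Pkp4 (25.3 and 28.3 CPM and 30.1 and 28.2 CPM, 0.12). Further cadherins rose: Cdh2, the neural cadherin, had 3 counts over both WT libraries and 93 over both Ezh2-KO libraries with a depth-corrected ratio of 32.6 (exact counting interval 10.8 to 161), Cdh3 changed by 1.05 and Cdh13 by 1.16. Nectin3 (3.60), Cadm4 (1.84) and the tight junction gene Cldn10 (1.91) also rose. Epithelial cadherin Cdh1 did not pass the test, with 38.6 and 17.2 CPM in WT and 20.1 and 19.8 CPM in Ezh2-KO. Igsf23, an immunoglobulin superfamily gene placed in this list, fell from 34.3 and 24.5 CPM to 7.92 and 7.43 CPM (-1.94). In total 9 of 33 tested genes of cadherins and junctions rose and 1 fell, with a median of 0.65, and calls numbered 2 higher and 0 lower without Ezh2-KO replicate 1, 3 and 0 without Ezh2-KO replicate 2, 15 and 2 without WT replicate 1, and 16 and 5 without WT replicate 2. Markers of thymic epithelial cells summed to 46.2, 23.4, 29.4 and 26.9 CPM in WT replicates 1 and 2 and Ezh2-KO replicates 1 and 2. Of the 6 tested genes only the keratin gene Krt18 was called (from 0.180 and 0.215 CPM to 1.96 and 1.17 CPM), while Epcam had 2.98 and 2.15 CPM in WT and 3.34 and 2.79 CPM in Ezh2-KO.

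**Figure D2:**
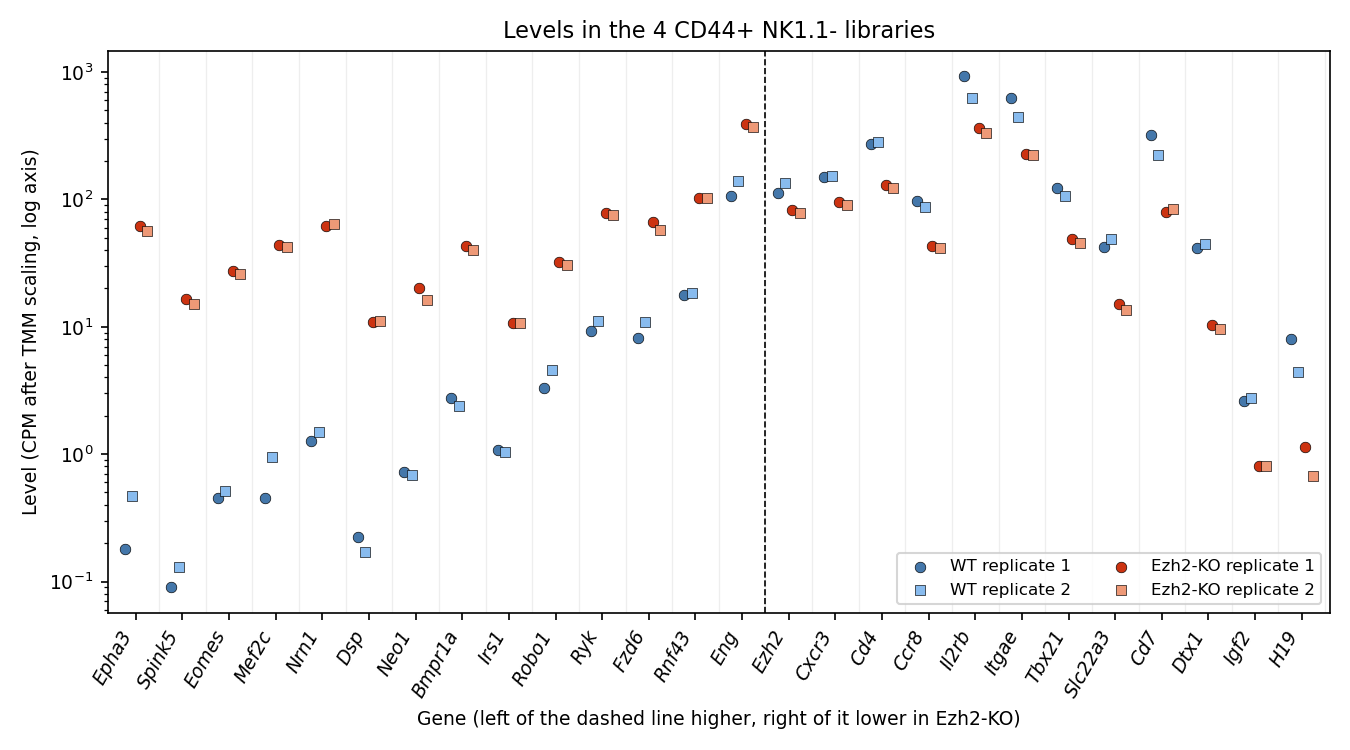
Level of 26 genes in each of the 4 libraries, in CPM after TMM scaling on a log axis, with WT in blue and Ezh2-KO in red and 1 point a library. Left of the dashed line the red points lie above both blue points of a gene (Epha3 from 0.180 and 0.473 to 62.1 and 56.2 CPM), and right of it they lie below both (Dtx1 from 41.5 and 45.0 to 10.4 and 9.59 CPM).

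Several ion channel genes of excitable cells rose, with 8 higher and 1 lower of 50 tested (median -0.06). Kcnj2, an inward rectifier potassium channel, had 3 counts over both WT libraries and 168 over both Ezh2-KO libraries with a depth-corrected ratio of 58.9 (exact counting interval 19.8 to 288). Kcnf1 (2.39), Trpc1 (2.48), Hcn3 (1.38), Grik5 (1.09), Kcnk1 (0.99) and Kcna1, with a depth-corrected ratio of 29.4 (exact counting interval 4.87 to 1204), rose as well. The fall was in Kcna3, the main voltage-gated potassium channel of T cells, which measured 34.6 and 32.5 CPM in WT and 21.4 and 22.2 CPM in Ezh2-KO (-0.62, adjusted p = 0.0346). The list had 2 higher and 0 lower without Ezh2-KO replicate 1, 2 and 0 without Ezh2-KO replicate 2, 12 and 6 without WT replicate 1, and 11 and 8 without WT replicate 2. In the Hippo and polarity list, the scaffold gene Wwc1 (0.811 and 1.25 CPM to 17.8 and 18.99 CPM) and the planar polarity gene Vangl1 (0.225 and 0.172 CPM to 2.10 and 2.75 CPM) rose and the kinase gene Lats1 (-0.58) and the polarity cadherin Celsr1 (-0.59) fell, of 31 tested. That list had 2 higher and 0 lower without Ezh2-KO replicate 1, 1 and 0 without Ezh2-KO replicate 2, 9 and 4 without WT replicate 1, and 9 and 8 without WT replicate 2.

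Transcription factors changed in opposite directions within the T-box family. Eomes and Tbx21 encode related factors, eomesodermin and T-bet, that drive effector programmes of NK and T cells, and T-bet is needed by NKT1 cells. Eomes (chromosome 9, 118478186 to 118486132) measured 0.451 and 0.516 CPM in WT and 27.2 and 25.97 CPM in Ezh2-KO, a change of 5.76 (SE 0.18, adjusted p = 0.000200). Tbx21 (chromosome 11, 97098007 to 97115331) measured 124 and 107 CPM in WT and 48.7 and 45.8 CPM in Ezh2-KO, a change of -1.29 (SE 0.11, adjusted p = 0.00342). Levels of different genes can be compared only per length. Eomes had a mean of 0.130 in WT and 7.15 in Ezh2-KO in CPM per kilobase of gene model, and Tbx21 had 45.2 in WT and 18.5 in Ezh2-KO, so Eomes was the lower of the pair in both genotypes. Tbx18, a T-box factor of heart and ureter, had 3 counts over both WT libraries and 106 over both Ezh2-KO libraries with a depth-corrected ratio of 37.2 (exact counting interval 12.4 to 183). Other lineage factors of T cells moved both ways: Tox2 rose from 16.6 and 18.8 CPM to 41.7 and 35.3 CPM (1.12) and Bcl6 from 3.07 and 2.54 CPM to 7.06 and 7.20 CPM (1.35), both known from follicular helper T cells, whereas Ikzf3 fell from 415 and 421 CPM to 249.2 and 239 CPM (-0.78) and Runx3 from 202 and 161 CPM to 105 and 94.6 CPM (-0.86). The list of T-box and lineage factors had 4 higher and 4 lower of 40 tested, and 1 higher and 0 lower without Ezh2-KO replicate 1, 1 and 0 without Ezh2-KO replicate 2, 10 and 16 without WT replicate 1, and 11 and 15 without WT replicate 2. Zbtb16, which encodes PLZF, the factor that defines NKT cells, measured 309.7 and 278 CPM in WT and 262 and 257 CPM in Ezh2-KO, and Gata3 167 and 159 CPM and 133 and 147 CPM, and neither was called (adjusted p = 0.360 and 0.278).

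Mef2c and Hdac9 rose together. Mef2 factors switch on muscle and neuronal genes, and class IIa histone deacetylases such as Hdac9 bind and restrain them. Mef2c (chromosome 13, 83504017 to 83667079) measured 0.451 and 0.946 CPM in WT and 43.8 and 42.1 CPM in Ezh2-KO, a change of 5.92 (SE 0.28, adjusted p = 0.000514). Hdac9 (chromosome 12, 34047580 to 34917095) had 3 counts over both WT libraries and 286 over both Ezh2-KO libraries, a depth-corrected ratio of 100.3 (exact counting interval 33.97 to 489) with an adjusted p of 0.00119. The other 6 tested genes of that list were not called, among them Mef2d with 99.8 and 70.7 CPM in WT and 74.8 and 72.5 CPM in Ezh2-KO. The list had 2 higher and 0 lower without Ezh2-KO replicate 1, 2 and 0 without Ezh2-KO replicate 2, 2 and 1 without WT replicate 1, and 2 and 5 without WT replicate 2. Of 7 tested Sox genes, 3 rose: Sox13, known from gamma-delta T cells, from 61.8 and 56.8 CPM to 161 and 155 CPM, Sox12 from 5.72 and 6.67 CPM to 20.8 and 16.5 CPM, and the neural factor Sox21, which had no counts in either WT library and 26 over both Ezh2-KO libraries, at least 4.56-fold higher against 3 counts in each WT library. Calls of Sox genes numbered 1 higher and 0 lower without Ezh2-KO replicate 1, 2 and 0 without Ezh2-KO replicate 2, 4 and 0 without WT replicate 1, and 4 and 0 without WT replicate 2. The remaining list of developmental factors was largely unread: 18 of 112 were tested, of which Tcf24, Tbx18 and Pbx3 rose and 0 fell, and 70 had no counts in any of the 4 libraries. Calls there numbered 2 higher and 0 lower without Ezh2-KO replicate 1, 2 and 0 without Ezh2-KO replicate 2, 5 and 1 without WT replicate 1, and 4 and 1 without WT replicate 2. Hox genes, classic PRC2 targets, stayed near 0, since 29 of 39 had no counts in any of the 4 libraries. The one tested, Hoxb4, measured 1.49 and 1.63 CPM in WT and 0.477 and 0.630 CPM in Ezh2-KO and was not called (adjusted p = 0.0717).

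Imprinted and fetal growth genes split by member. Genes in this list limit or promote fetal growth, and several are expressed from 1 parental copy. Higher in Ezh2-KO were Grb10, the zinc finger factor Plag1 (0.496 and 0.645 CPM to 8.01 and 7.61 CPM), its relative Plagl1 (3.49), the chromatin protein Hmga2 (1.60), the Delta-like protein Dlk1 (5.09 and 6.92 CPM to 19.5 and 16.5 CPM) and the cell cycle inhibitor Cdkn1c (1.98 and 1.76 CPM to 5.30 and 6.26 CPM). Lower were Igf2, H19 and Slc22a3. Igf2, the fetal growth factor, measured 2.61 and 2.75 CPM in WT and 0.811 and 0.810 CPM in Ezh2-KO (-1.72, adjusted p = 0.0178). H19, the non-coding RNA of the same imprinted domain, measured 7.98 and 4.39 CPM in WT and 1.14 and 0.675 CPM in Ezh2-KO (-2.76, adjusted p = 0.0203). The cation transporter gene Slc22a3 measured 42.3 and 49.2 CPM in WT and 15.03 and 13.6 CPM in Ezh2-KO (-1.68, adjusted p = 0.00320). For all 3 the highest Ezh2-KO library was under the lowest WT library, as for every gene called lower. That is 6 higher and 3 lower of 22 tested (median 0.17), with 2 higher and 1 lower without Ezh2-KO replicate 1, 2 and 0 without Ezh2-KO replicate 2, 8 and 4 without WT replicate 1, and 11 and 4 without WT replicate 2. Cdkn2a, a cell cycle inhibitor that PRC2 silences in many tissues, measured 4.82 and 5.16 CPM in WT and 5.20 and 4.64 CPM in Ezh2-KO, overlapping levels (adjusted p = 0.965).

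Some genes of the Polycomb machinery itself were called, where 4.94% of all genes tested were called in either direction. Besides Ezh2, of 14 PRC2 genes tested only Epop, an accessory subunit, was called, with 38.5 and 42.1 CPM in WT and 74.6 and 63.9 CPM in Ezh2-KO (0.78, adjusted p = 0.0227). Ezh1, the related enzyme that can serve in its place, measured 75.4 and 68.3 CPM in WT and 63.6 and 61.2 CPM in Ezh2-KO and was not called (-0.20, adjusted p = 0.319). Of 20 tested genes of the companion complex PRC1, 1 rose and 1 fell. The rise was in Bmi1, from 67.03 and 62.4 CPM to 136 and 132 CPM (1.05). Epop and Bmi1 were set apart from both WT libraries by 1.5-fold, and Ezh2 was not. None of 16 tested demethylase and trithorax genes and none of 12 DNA methylation genes was called by edgeR, where 8 and 4 genes had an unadjusted p under 0.05, all of them lower. DESeq2 called 1 and 0 of these genes and limma-voom 0 and 0. Without WT replicates 1 and 2, the lower calls numbered 8 and 10 in the first list and 6 and 5 in the second. The PRC2 list had 0 higher and 0 lower without Ezh2-KO replicate 1, 0 and 0 without Ezh2-KO replicate 2, 1 and 3 without WT replicate 1, and 2 and 5 without WT replicate 2, and the PRC1 list had 0 higher and 0 lower without Ezh2-KO replicate 1, 0 and 0 without Ezh2-KO replicate 2, 1 and 4 without WT replicate 1, and 4 and 3 without WT replicate 2.

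Several genes of NKT1 cells fell. Il2rb, the shared receptor chain for interleukins 2 and 15, measured 927 and 627 CPM in WT and 364 and 332 CPM in Ezh2-KO (-1.16, adjusted p = 0.0303). Il18rap, a chain of the interleukin-18 receptor, measured 113 and 89.6 CPM in WT and 44.7 and 42.1 CPM in Ezh2-KO (-1.22, adjusted p = 0.00725). The chemokine receptor gene Cxcr3 measured 151 and 153 CPM in WT and 95.6 and 91.1 CPM in Ezh2-KO (-0.70, adjusted p = 0.0121). In each case both Ezh2-KO libraries were under both WT libraries, as for every gene called lower. WT replicate 1 was the higher WT library for Il2rb and Il18rap but not for Cxcr3. With Tbx21 and Id2 (-0.49), 5 of 30 tested NKT1 genes fell and 0 rose. The list summed to 4242, 2879, 2057 and 1999 CPM in WT replicates 1 and 2 and Ezh2-KO replicates 1 and 2, and its median change of -1.15 was -0.52 without WT replicate 1 and -1.38 without WT replicate 2. Its calls numbered 0 higher and 0 lower without Ezh2-KO replicate 1, 0 and 0 without Ezh2-KO replicate 2, 4 and 20 without WT replicate 1, and 2 and 27 without WT replicate 2, and DESeq2 called 15 lower. Klrb1c, the NK1.1 gene given above, was highest in WT replicate 1 too (-1.64, adjusted p = 0.340), and the part of NK1.1+ cells in the NKT1 change was not tested. Ifng, the cytokine of these cells, was high in WT replicate 1 alone, with 36.8 and 3.27 CPM in WT and 1.05 and 0.945 CPM in Ezh2-KO, and was not called (adjusted p = 0.325).

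Markers of the other lineages moved both ways. Il13, a cytokine of NKT2 cells, fell from 24.4 and 25.2 CPM to 9.16 and 12.9 CPM (-1.17), whereas Il4 had 28.1 and 27.3 CPM in WT and 22.1 and 23.6 CPM in Ezh2-KO and was not called (adjusted p = 0.252). Of 19 tested NKT2 genes, Slamf6 rose (0.55) and Il13 and Cd4 fell, with 0 higher and 0 lower without Ezh2-KO replicate 1, 0 and 0 without Ezh2-KO replicate 2, 5 and 5 without WT replicate 1, and 5 and 7 without WT replicate 2. Of 22 tested NKT17 genes, Sox13 rose and the chemokine receptor gene Ccr6 fell, from 11.99 and 20.3 CPM to 3.96 and 4.46 CPM (-1.94, adjusted p = 0.0186), with 1 higher and 0 lower without Ezh2-KO replicate 1, 1 and 0 without Ezh2-KO replicate 2, 4 and 12 without WT replicate 1, and 5 and 9 without WT replicate 2. Il17a stood at 4.19 and 0.129 CPM in WT and 0.668 and 0.675 CPM in Ezh2-KO, so the WT replicates lay on either side of both Ezh2-KO values. Its change was -1.67 and not called, but it was 2.33 (adjusted p = 0.0286) without WT replicate 1 and -2.63 (adjusted p = 1.21e-12) without WT replicate 2.

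Some coreceptor and surface genes of T cells fell and others rose. Cd4 (chromosome 6, 124864693 to 124888247), the coreceptor for class II molecules that part of NKT cells carry, measured 274 and 284 CPM in WT and 131 and 122 CPM in Ezh2-KO, a change of -1.14 (SE 0.09, adjusted p = 0.00320). Cd7, a surface protein of T and NK cells, measured 321 and 224 CPM in WT and 79.5 and 83.9 CPM in Ezh2-KO (-1.74, adjusted p = 0.00725). Cd48, a SLAM family ligand, measured 94.8 and 93.8 CPM in WT and 56.1 and 58.996 CPM in Ezh2-KO (-0.71, adjusted p = 0.0115). The genotypes did not overlap for these 3 genes, as for every called gene, and the WT replicates of Cd4 and Cd48 were nearly equal. Cd48 came from the SLAM and SAP list, where Slamf6 rose (0.55), with 1 higher and 1 lower of 10 tested (median 0.03). Cd247, the signalling zeta chain of the T cell receptor, rose from 327 and 341 CPM to 576 and 605 CPM (0.82). That left 1 higher and 2 lower of 23 tested CD3 and coreceptor genes (median -0.03). That list had 0 higher and 0 lower without Ezh2-KO replicate 1, 0 and 0 without Ezh2-KO replicate 2, 7 and 5 without WT replicate 1, and 4 and 9 without WT replicate 2.

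Chemokine receptor genes that passed the test fell, and integrin genes moved both ways. Chemokine receptors had 0 higher and 4 lower of 19 tested (median -0.29): Ccr6, Cxcr3, Ccr8 (97.2 and 87.9 CPM to 43.1 and 41.8 CPM, -1.13) and Cx3cr1 (13.1 and 11.01 CPM to 3.96 and 3.38 CPM, -1.72). Among integrins and homing molecules 4 rose and 2 fell of 25. Itgae, which pairs to bind epithelial cadherin, fell from 622 and 441 CPM to 226 and 225 CPM (-1.23, adjusted p = 0.0161), and Cd44, by which the cells were gated, changed by -0.62 (adjusted p = 0.0436) without a gap of 1.5-fold. Itga4 rose from 76.4 and 74.8 CPM to 147 and 129 CPM (0.87) and its partner Itgb1 from 282 and 239.9 CPM to 472 and 458 CPM (0.83). Itga7, a laminin receptor of muscle, rose from 1.89 and 1.63 CPM to 9.49 and 9.09 CPM (2.39), and Itgb5 by 0.92. The integrin list had 0 higher and 0 lower without Ezh2-KO replicate 1, 1 and 0 without Ezh2-KO replicate 2, 6 and 7 without WT replicate 1, and 7 and 8 without WT replicate 2. Cytokine receptors had 0 higher and 3 lower of 34 tested, the third being Il9r (-0.92). Chemokine receptor calls numbered 0 higher and 0 lower without Ezh2-KO replicate 1, 0 and 0 without Ezh2-KO replicate 2, 3 and 9 without WT replicate 1, and 5 and 9 without WT replicate 2. Cytokine receptor calls numbered 0 higher and 0 lower without Ezh2-KO replicate 1, 0 and 0 without Ezh2-KO replicate 2, 2 and 12 without WT replicate 1, and 2 and 18 without WT replicate 2. Itgae and Ccr8 are also markers of regulatory T cells. Of 12 tested markers of that list, 0 rose and 3 fell, the other being Capg (525 and 509.7 CPM to 340.3 and 342 CPM), and the list summed to 2061, 1702, 1563 and 1582 CPM in WT replicates 1 and 2 and Ezh2-KO replicates 1 and 2. Its median of -0.60 was 0.02 without WT replicate 1 and -0.70 without WT replicate 2, and its calls numbered 0 higher and 0 lower without Ezh2-KO replicate 1, 0 and 0 without Ezh2-KO replicate 2, 4 and 4 without WT replicate 1, and 3 and 6 without WT replicate 2. The defining factor Foxp3 measured 0.676 and 0.258 CPM in WT and 0.143 and 0.315 CPM in Ezh2-KO (-0.99, adjusted p = 0.501), and Ctla4 8.11 and 0.903 CPM and 1.57 and 2.25 CPM (-1.23, adjusted p = 0.618), and neither was called. Ctla4 was high in WT replicate 1 alone, and its change was 1.08 without that library. The part of regulatory T cells in these falls was not tested.

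Several gamma-delta T cell genes rose. These genes encode the receptor chains and factors of T cells with the other receptor type, and NKT cells can carry transcripts of unused gamma segments. Trgv5 measured 4.55 and 5.63 CPM in WT and 44.3 and 41.9 CPM in Ezh2-KO, a change of 3.08 (SE 0.15, adjusted p = 0.000514). Trdc, the delta constant segment, measured 10.4 and 6.41 CPM in WT and 33.9 and 34.7 CPM in Ezh2-KO, a change of 2.03 (SE 0.23, adjusted p = 0.00855). Trgc1 (0.67), Trgv4 (0.49), Trgv6 (1.20), Sox13 and the scavenger receptor gene 5830411N06Rik (0.90) rose by less. That made 7 higher and 0 lower of 20 tested (median 0.53), and 2 higher and 0 lower without Ezh2-KO replicate 1, 2 and 0 without Ezh2-KO replicate 2, 14 and 2 without WT replicate 1, and 14 and 0 without WT replicate 2. Reads may be shared among near-identical receptor segments, so the value of any 1 segment is uncertain. The part of gamma-delta T cells among the sorted cells, or of unused segments in NKT cells, in these rises was not tested. Natural killer receptors gave 2 higher and 0 lower of 33 tested, Klra4 (2.12 and 1.33 CPM to 7.78 and 7.88 CPM) and Klrb1b (0.67), and their median of -0.56 was 0.39 without WT replicate 1 and -0.99 without WT replicate 2, so its sign rested on WT replicate 1. Calls of these receptors numbered 0 higher and 0 lower without Ezh2-KO replicate 1, 0 and 0 without Ezh2-KO replicate 2, 11 and 4 without WT replicate 1, and 6 and 23 without WT replicate 2. Klra4 belongs to a family whose members share reads.

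Notch1 and 2 of its targets fell while a Notch ligand rose. Notch signals guide early T cell fate, and Dtx1 and Nrarp are targets that feed back on the pathway. Dtx1 (chromosome 5, 120680203 to 120711867) measured 41.5 and 45.03 CPM in WT and 10.4 and 9.59 CPM in Ezh2-KO, a change of -2.11 (SE 0.12, adjusted p = 0.000925). Notch1 measured 216 and 176 CPM in WT and 117 and 107 CPM in Ezh2-KO (-0.80, adjusted p = 0.0246). Nrarp measured 23.4 and 25.8 CPM in WT and 16.3 and 13.6 CPM in Ezh2-KO (-0.72, adjusted p = 0.0474). Jag1, a ligand, measured 18.5 and 18.2 CPM in WT and 39.8 and 38.9 CPM in Ezh2-KO (1.102, adjusted p = 0.00500). Adam10, the protease that releases the receptor, rose by 0.45. The groups did not overlap for any of the 5, as for every called gene. Only Dtx1 and Jag1 were set apart by 1.5-fold, with Notch1 just short of it. Of 30 tested Notch genes, 2 rose and 3 fell, and calls numbered 0 higher and 1 lower without Ezh2-KO replicate 1, 0 and 1 without Ezh2-KO replicate 2, 8 and 9 without WT replicate 1, and 5 and 15 without WT replicate 2.

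Genes that restrain receptor signals and surface partners of T cells changed in a few members. Spry1, an inhibitor of signals from receptors to ERK, measured 8.74 and 9.98 CPM in WT and 30.3 and 26.3 CPM in Ezh2-KO (1.60, adjusted p = 0.00457). The phosphatase gene Ptpn22 measured 164 and 138 CPM in WT and 99.7 and 98.8 CPM in Ezh2-KO (-0.61, adjusted p = 0.0381). Socs1, an inhibitor of cytokine signals, measured 47.2 and 36.9 CPM in WT and 24.3 and 25.7 CPM in Ezh2-KO (-0.75, adjusted p = 0.0440). With the early response factor Egr1, that made 1 higher and 3 lower of 35 tested feedback genes, and only Spry1 was set apart. That list had 0 higher and 0 lower without Ezh2-KO replicate 1, 1 and 0 without Ezh2-KO replicate 2, 6 and 12 without WT replicate 1, and 5 and 18 without WT replicate 2. In the TNF receptor list Tnfrsf19 rose from 2.70 and 3.40 CPM to 7.06 and 7.83 CPM and Cd40 from 2.57 and 1.72 CPM to 4.67 and 5.94 CPM, of 33 tested, with 0 higher and 0 lower without Ezh2-KO replicate 1, 0 and 0 without Ezh2-KO replicate 2, 4 and 5 without WT replicate 1, and 7 and 9 without WT replicate 2. Of 17 tested co-inhibitory genes only Pdcd1lg2 was called, from 16.2 and 19.998 CPM to 10.7 and 10.5 CPM (-0.77), with 0 higher and 0 lower without Ezh2-KO replicate 1, 0 and 0 without Ezh2-KO replicate 2, 6 and 3 without WT replicate 1, and 5 and 7 without WT replicate 2.

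Some programmes were read differently by the 2 WT libraries. The 29 tested immediate early genes had a median of -1.48, which was -0.11 without WT replicate 1 and -2.24 without WT replicate 2, and Egr1 (-0.54) was the only call. That list had 0 higher and 0 lower without Ezh2-KO replicate 1, 0 and 0 without Ezh2-KO replicate 2, 10 and 11 without WT replicate 1, and 2 and 24 without WT replicate 2. Proliferation genes summed to 5616, 8163, 6689 and 6663 CPM in WT replicates 1 and 2 and Ezh2-KO replicates 1 and 2, so both Ezh2-KO libraries lay between the WT libraries. None of the 40 was called by edgeR, DESeq2 or limma-voom, 4 had an unadjusted p under 0.05 by edgeR, and the median of -0.06 was -0.35 without WT replicate 1 and 0.26 without WT replicate 2. Calls numbered 0 higher and 0 lower without Ezh2-KO replicate 1, 0 and 0 without Ezh2-KO replicate 2, 1 and 27 without WT replicate 1, and 25 and 1 without WT replicate 2. The 10 called genes with the largest fold between the WT replicates were Ccl3, Serpina3f, Nrep, Gca, Pik3r3, Evc, Asphd2, Ret, Klra14-ps and Cd276. Cd276, a costimulatory ligand gene, measured 0.541 and 2.15 CPM in WT and 17.9 and 18.9 CPM in Ezh2-KO, which is above both WT libraries in spite of their difference. Ccl3, a chemokine gene, had 6 counts in WT replicate 1 and none in WT replicate 2, and measured 3.96 and 4.95 CPM in Ezh2-KO. Serpina3f, a protease inhibitor gene and the only fall among the 10, had 53 counts over both WT libraries and 2 over both Ezh2-KO libraries, and both Ezh2-KO libraries were under both WT libraries.

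**Figure D3:**
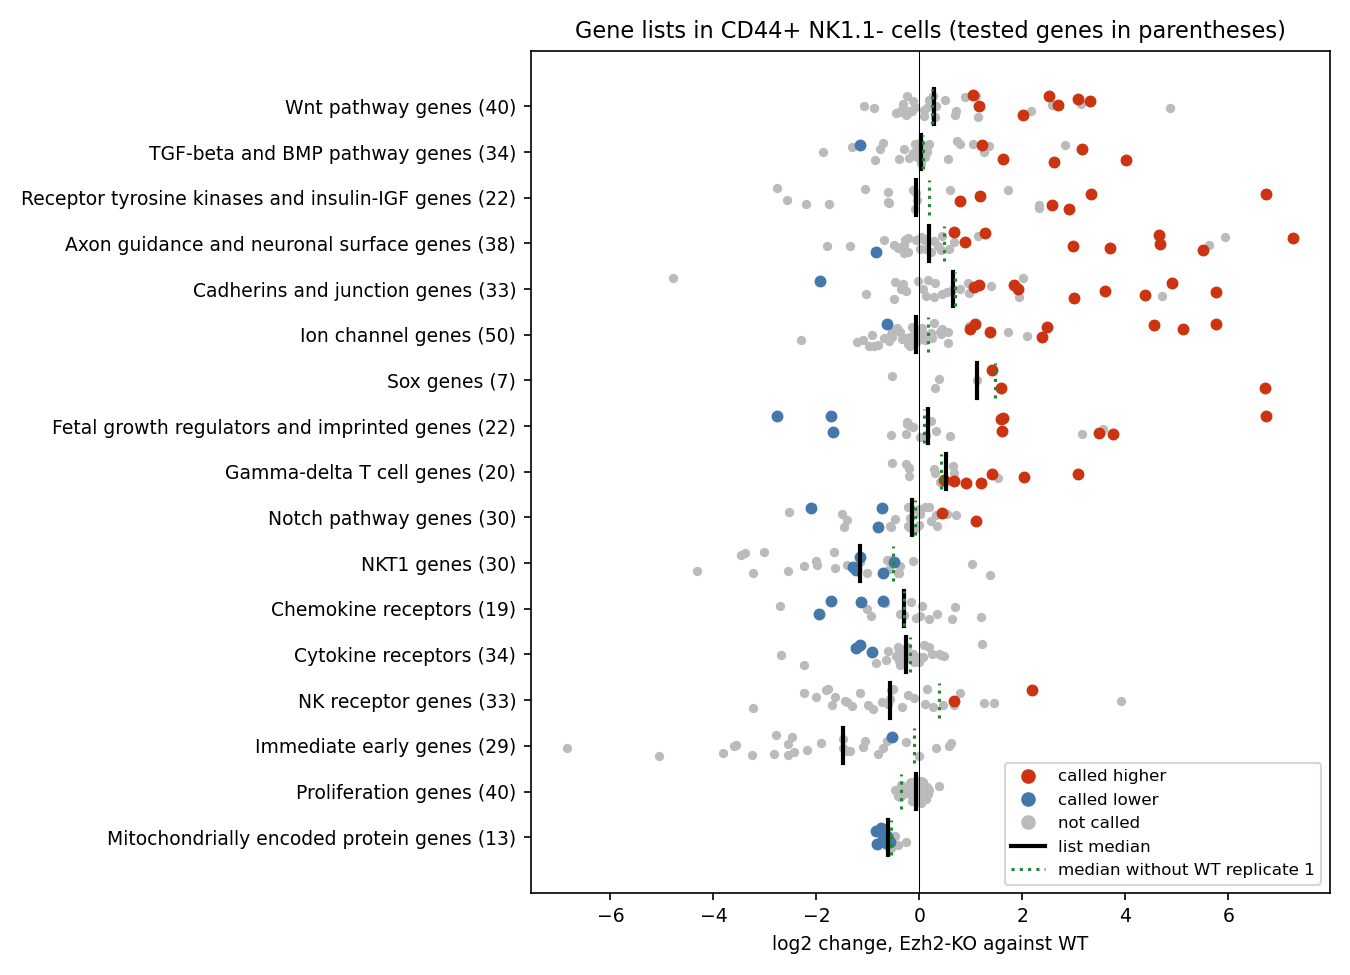
Log2 change of each tested gene of 17 lists in CD44+ NK1.1- cells, with called genes in colour, the median of a list as a black bar and its median without WT replicate 1 as a dotted bar. The median of the 29 immediate early genes moves from -1.48 to -0.11 and that of the 33 NK receptor genes from -0.56 to 0.39, while that of the 33 cadherin and junction genes moves from 0.65 to 0.69.

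RNA of genes encoded in the mitochondrion was lower in Ezh2-KO. Its 13 protein genes, a list added after their values were seen, made up 4.47% and 4.22% of counts in the WT replicates and 3.33% and 2.77% in the Ezh2-KO replicates. All 13 were lower in both Ezh2-KO libraries than in both WT libraries, against 25.8% of all genes tested. Of the 13, 7 were called lower, against 1.16% of all genes tested. Since the list was added with its values known, both counts describe it and do not test it. Its members are not 13 separate observations. ATP8, a subunit gene of ATP synthase, measured 706 and 699.9 CPM in WT and 391 and 392 CPM in Ezh2-KO (-0.84, adjusted p = 0.00638) and was the only one set apart by 1.5-fold. No gene of the 13 was called when either Ezh2-KO replicate was left out. DESeq2 called 12 of them and limma-voom 3. The same share was 4.85% in WT and 4.17% in Ezh2-KO CD44+ NK1.1+ cells and 4.63% and 2.82% in CD44- NK1.1- cells, each from 1 library.

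The changes in CD44+ NK1.1- cells largely had the same sign in the neighbouring subsets. Of the 479 genes called higher and set apart, 460 were higher in Ezh2-KO CD44+ NK1.1+ cells, 426 in CD44- NK1.1- cells and 411 in both, against 30.7% of all tested genes that were higher in both. Of the 90 called lower and set apart, 85, 83 and 78 were lower there, against 31.5% of all tested genes. The 479 genes had median log2 changes of 1.95 in CD44+ NK1.1- cells, 1.61 in CD44+ NK1.1+ cells and 0.92 in CD44- NK1.1- cells, and the 90 had -1.24, -0.77 and -0.78. These genes were chosen by their change in CD44+ NK1.1- cells, and the order of the medians was not tested. A gene near 0 in the WT library of another subset could hardly be lower in Ezh2-KO there. The shares of all tested genes are therefore not a matched reference. Eomes went from 0.820 to 72.2 CPM in CD44+ NK1.1+ cells and from 0.405 to 3.71 CPM in CD44- NK1.1- cells. Epha3 went from 0.386 to 40.7 CPM and from 2.70 to 26.8 CPM in the same order, Mef2c from 0.241 to 9.50 and 0.809 to 20.9, Rnf43 from 17.7 to 98.2 and 75.7 to 143, and Cd4 from 175 to 45.2 and 209.5 to 89.6. Tbx21 went from 378 to 356 CPM in CD44+ NK1.1+ cells, where its change was -0.09, and from 40.4 to 17.2 CPM in CD44- NK1.1- cells, where it was -1.23.

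Differences between the subsets were tested in the same fit. Against CD44+ NK1.1+ cells 0 genes (0.0%) were called by edgeR, with 519 at an unadjusted p under 0.05 and 24 called by DESeq2. With 1 library a genotype there, the lack of a call does not show that the changes were alike. Against CD44- NK1.1- cells 3 genes (0.0217%) were called by edgeR, with 648 at an unadjusted p under 0.05 and 28 called by DESeq2. Bmpr1a changed from 22.1 to 42.9 CPM in CD44- NK1.1- cells, where the WT library was already high, so that its change was 3.05 (SE 0.23, adjusted p = 0.0403) log2 units larger in CD44+ NK1.1- cells. Spink5, a protease inhibitor gene of skin, rose from 0.0902 and 0.129 CPM, which is 5 counts over both WT libraries, to 16.6 and 15.2 CPM in CD44+ NK1.1- cells but went from 33.6 to 14.7 CPM in CD44- NK1.1- cells, a difference of 8.29 (SE 0.35, adjusted p = 0.00401). Trbv1, a receptor beta segment, measured 82.7 and 75.1 CPM in WT and 109 and 113 CPM in Ezh2-KO CD44+ NK1.1- cells (0.50) and went from 406 to 95.7 CPM in CD44- NK1.1- cells, a difference of 2.58 (SE 0.17, adjusted p = 0.0276). The CD44- NK1.1- side of each rests on 1 library a genotype. Without Ezh2-KO replicate 1 or 2 the tests called 0 and 0 genes against CD44+ NK1.1+ cells and 1 and 1 against CD44- NK1.1- cells, and without WT replicates 1 and 2 they called 567 and 2634, and 602 and 3063.

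**Figure D4:**
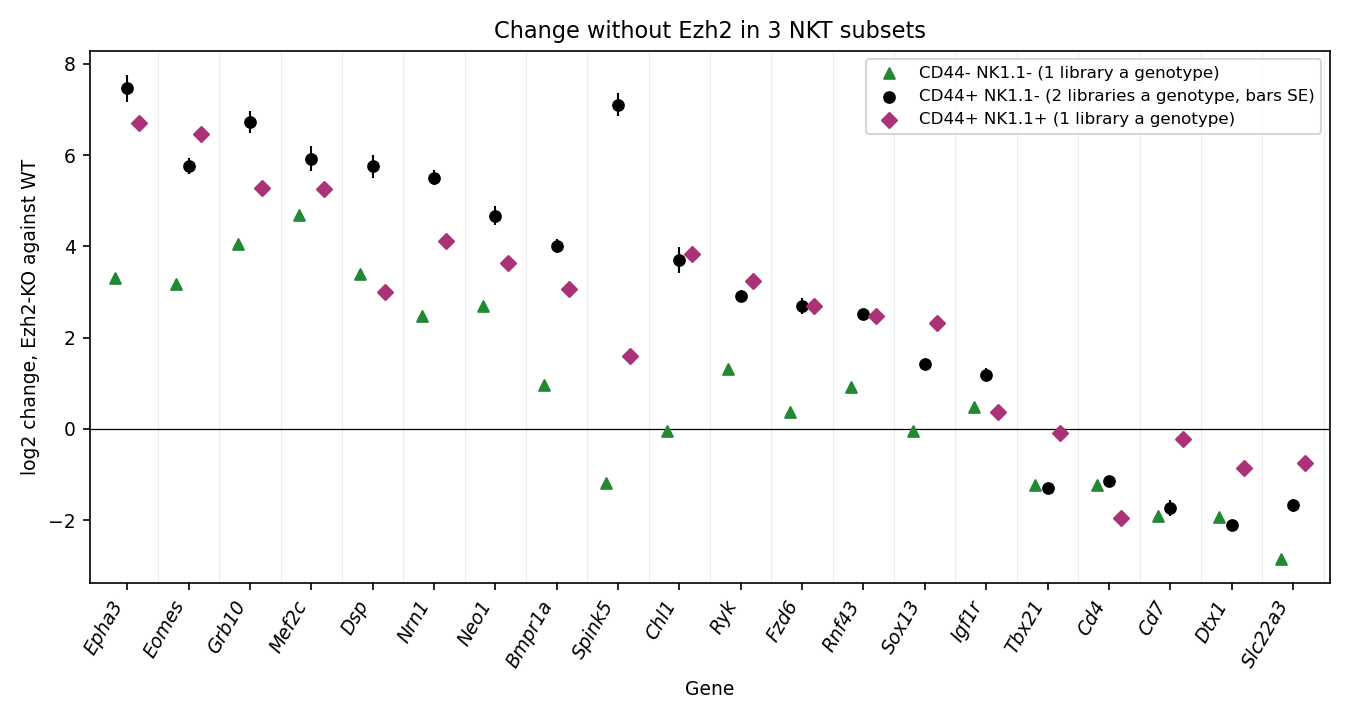
Log2 change without Ezh2 of 20 genes in CD44- NK1.1- cells (triangles), CD44+ NK1.1- cells (circles, with the SE of the fit) and CD44+ NK1.1+ cells (diamonds), the first and last from 1 library a genotype. Spink5 and Bmpr1a are far higher as circles than as triangles, with differences of 8.29 and 3.05. Tbx21 and Cd7 have diamonds near 0, but their differences from CD44+ NK1.1+ cells were not called by edgeR.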

How the data were processed

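RNA was sequenced from sorted thymic NKT cells in 8 libraries, of which the 4 of CD44+ NK1.1- cells, 2 a genotype, are described. The authors deposited raw read counts per gene, with the 8 single-library tables equal to the series table. The submitters' processing notes name CASAVA, Subread 1.4.3-p1, featureCounts and build mm10. Which gene annotation and strand setting were used is not given in the sources used here. The number of columns of per-sample values left unused was 0. Of 27179 gene IDs, 25275 had a RefSeq symbol, and the others were tested but not named.

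Counts were fitted with edgeR 4.0.16 in R 4.3.3 (TMM scaling, filterByExpr, robust quasi-likelihood test, 6 group means over 8 libraries, which left 2 residual degrees of freedom and share 1 estimate of spread). P-values were adjusted by Benjamini-Hochberg over all 13794 genes. Since only 2 pairs of replicates exist, p-values set a change against the spread between these libraries. That spread was drawn toward a trend over all genes (median prior degrees of freedom 4.17). Alternatives used DESeq2 1.42.0 and limma 3.58.1. The scripts were tested on simulated counts. Named are the 25 largest rises and the 25 largest falls among genes set apart with a mean of at least 10 CPM in the higher genotype, called members of the lists, up to 4 uncalled members of a list with the smallest p, the 5 genes of smallest p in each difference between subsets, the 10 called genes with the largest WT fold, and 11 fixed genes such as Ezh2 and Zbtb16. Acvr1, Acvr2a, Ctla4, Foxp3, Insr, Irs2, Jup, Pkp3, Pkp4, Traj18 and Trav11d were named after their values were seen. The members and lists were chosen with earlier results of these data known. Results for some genes are not reported here.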

Additional observations from a re-analysis of the deposited data

Results flagged for a closer look

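The effects on 3 genes stood out by the test of the difference between subsets, in which the effect of Ezh2 loss in CD44+ NK1.1- cells was set against that in CD44- NK1.1- cells (edgeR quasi-likelihood test). The effect on Bmpr1a was 3.05 (SE 0.23, adjusted p = 0.0403) larger on the log2 scale, with 0.96 in CD44- NK1.1- cells. The effect on Spink5 was 8.29 (SE 0.35, adjusted p = 0.00401) larger, and its direction was opposite in CD44- NK1.1- cells (-1.19). The WT level of Spink5 in CD44+ NK1.1- cells rested on 5 counts. The effect on Trbv1 was 2.58 (SE 0.17, adjusted p = 0.0276) larger, again with the opposite direction there (-2.08). All 3 rest on 1 library a genotype in CD44- NK1.1- cells, whose own spread was not measured and was taken from the replicated groups.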

How the results depend on the processing

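No paired analysis was possible because the labels carry no replicate numbers that tie a WT library to an Ezh2-KO library. The number of called genes stayed within 1.5 times of 682 (522 higher and 160 lower) with DESeq2's size factors (686), scaling by library size (686), no filter on low counts (847), a minimum of 1 CPM (597), edgeR without robust estimation (606), limma-voom (560), DESeq2 (653) and a fit of the 4 libraries alone (704). It fell to 290 in a test against a fold of 1.5 (260 higher and 30 lower). Lower calls were 270 by DESeq2 and 98 by limma-voom. Leaving out 1 of the 4 libraries gave 101 to 5792 calls, 96 to 2899 higher and 3 to 2893 lower. With 1 library of a genotype left, that library was assumed to vary like the others, and all fits without an Ezh2-KO library rest on the spread of the WT pair. The differences between subsets numbered 24 and 28 by DESeq2, and 0 to 2634 and 1 to 3063 when 1 library was left out, for CD44+ NK1.1+ and CD44- NK1.1- cells. Of the 154 called genes named in the text, 36 kept their call in every setting. The direction changed for 7 uncalled genes. Leaving out 1 library gave log2 changes of -0.95 to 0.22 for Cdh1, -2.63 to 2.33 for Il17a, -2.08 to 1.08 for Ctla4, -0.21 to 0.0638 for Insr, -0.44 to 0.0598 for Mef2d, -0.11 to 0.0589 for Cdkn2a and -0.14 to 0.0924 for Jup. With library size scaling Cdkn2a stood at 0.0237 and Jup at 0.0173. Levels under 0.151 CPM rest on 3 or fewer counts in a library, and fitted changes from them depend on the few reads there. The causes of these shifts were not tested.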
